A study of Mus musculus with 12 samples.

Results

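Integrins and laminins are the receptor and ligand chains through which a fibroblast holds its surroundings. The table of mouse gene expression values held 37 such chain genes among 24346 genes, namely 18 integrin alpha, 8 integrin beta, 5 laminin alpha, 3 laminin beta and 3 laminin gamma chains. They were taken by gene symbol alone, whatever their level or change. Of these, 22 genes reached 0.5 FPKM in 3 or more of the 12 libraries and were tested. FPKM scales the sequenced fragments of a gene to transcript length and library size, so it allows levels to be compared between genes per length. The other 15 genes fell under that filter.

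The libraries came from a pair of mouse fibroblast lines in culture. NIH-3T3 derives from embryos of the NIH/Swiss strain, and MLg derives from the lung of newborn ddY mice. Each line received either recombinant SHHN, the amino-terminal signalling fragment of Sonic hedgehog, at 1 µg/ml, or vehicle as the control, for 48 h in DMEM with 0.5% fetal bovine serum. The groups were NIH-3T3 with SHHN, NIH-3T3 control, MLg with SHHN and MLg control, with 3 libraries each. Nothing in the labels says that the replicates were separate cultures, so p-values measure only the spread between these libraries, which may be technical. Each origin is represented by 1 established line.

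An integrin is a pair of one alpha and one beta chain that spans the membrane. The alpha chain largely sets the ligand (collagen, laminin, or proteins with an Arg-Gly-Asp motif such as fibronectin and vitronectin), and the beta chain connects to talin and actin inside the cell. A laminin is a secreted cross-shaped trimer of one alpha, one beta and one gamma chain that builds the basement membrane, with the alpha chain carrying the main integrin-binding domains. Integrin chains reach the surface only once paired, and a laminin trimer needs each of its chains. An mRNA level therefore does not give the amount of a heterodimer or trimer.

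The total FPKM per library lay between 470218 and 659862, and the number of reads behind it is unknown. Gli1, a transcriptional target and effector of Hedgehog signalling, averaged 147 ± 6.69 FPKM in SHHN and 0.131 ± 0.0478 FPKM in control libraries of NIH-3T3, and 120 ± 7.69 FPKM in SHHN and 0.583 ± 0.28 FPKM in control libraries of MLg (SD, n = 3 each), which separates the treated from the control libraries. The summed FPKM of 9 fibroblast markers was 8391 to 10350 in NIH-3T3 SHHN, 13010 to 14350 in NIH-3T3 control, 7795 to 9274 in MLg SHHN and 8670 to 9911 in MLg control libraries. Thy1, a fibroblast surface marker, was absent or nearly so in MLg, with at most 0.106 FPKM in any library. Every NIH-3T3 library had 115 FPKM or more. Between control libraries, Fap and Pdgfrb went the other way, with log2 differences of -1.67 and -0.71 (NIH-3T3 minus MLg). Col3a1, Pdgfra, Vim and Dcn were higher in NIH-3T3 control libraries, and Col1a1 and Col1a2 did not reach an adjusted p of 0.05 by limma. The first NIH-3T3 SHHN library stood apart from its replicates for some genes, among them Itga6 and Itga9 below, Cdh5 (2.10 FPKM, against 13.9 and 11.1 FPKM) and Dcn (369 FPKM, against 762 and 948 FPKM). In bulk samples such as these, fewer cells of a type and less RNA per cell cannot be told apart.

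Over the 12 libraries, Itgb1, the beta chain shared by most matrix-binding integrins, had the highest mean FPKM of the 37 genes, with group means of 218 ± 17.2 in NIH-3T3 SHHN, 204 ± 38.8 in NIH-3T3 control, 157 ± 15.8 in MLg SHHN and 180.0 ± 27.3 in MLg control (SD, n = 3 each). Lamb1, Lamb2, Lamc1, Lama4 and Itgb5 followed, with group means between 39.4 and 198 FPKM, and in MLg SHHN libraries Lamb2 stood above Itgb1. Itga5 and Itgav were the leading integrin alpha chains in every group, at 24.2 to 44.2 FPKM. Of the 22 tested genes, 15 had at least 0.5 FPKM in all 12 libraries. The other 7 tested genes passed the filter through some libraries only, Itgb2 through 4 control libraries and none with SHHN, Itgb8 through 4 NIH-3T3 libraries, Itga2 and Lama5 through the 6 MLg libraries, Itga1 through 7, Itga9 through 9 and Itga7 through 11.

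The genes under the filter included Itga4, Itga10, the leukocyte chains Itgad, Itgae, Itgal, Itgam, Itgax and Itgb7, the epithelial chains Itgb4 and Itgb6, and the laminin chains Lama1, Lama3, Lamb3 and Lamc3. Itga10, a collagen receptor chain of cartilage, gave the highest value of these 15 genes, 1.10 FPKM in the first MLg control library, and the other 14 stayed under 0.5 FPKM in every library. In 5 of the 15 genes, 9 or more libraries were listed at 0.

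**Figure D1:**
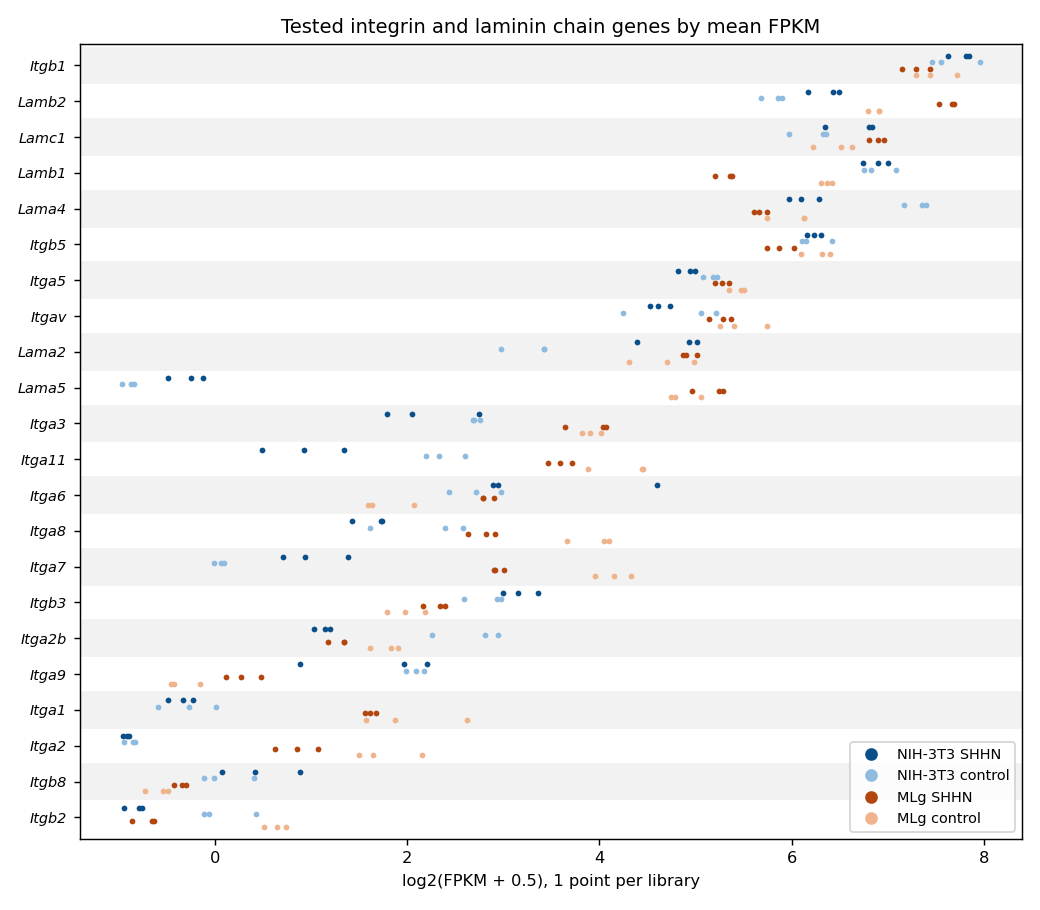
Level of each of the 22 tested integrin and laminin chain genes as log2(FPKM + 0.5), with 1 point per library coloured by group and genes ordered by mean FPKM. Itgb1 has the highest mean over all libraries, and the points of Lama5, Itga7, Itga2 and Itga1 lie apart between the lines, lower in NIH-3T3.

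All 37 genes were found in the GENCODE M21 annotation of GRCm38, spread over 14 chromosomes. Itga1 and Itga2, which encode collagen receptor chains, lie 21 kb apart on chromosome 13. RefSeq promoters of GRCm38.p6, defined as 250 bases before to 50 bases after a gene's start, were matched for 23 of the 37 genes and gave 26 promoters. Their median GC content was 58.8%, against 52.7% over all 32851 promoters. The GC box GGGCGG, read on both strands, occurred in 12 of the 26 (46.2%), against 35.7% of all promoters. The Gli motif GACCACCCA occurred in none of the 26 and in 0.253% of all promoters, the letters TATAAA in none and in 13.6%, and the AP-1 motif TGANTCA in 3 (11.5%) and in 7.81%. No match says only that these letters are not in this window. Each motif was searched on both strands and counted on its own, so a stretch could count for more than one motif.

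The promoters of 4 genes described below are shown because these genes moved in different ways: Itga11 was lower with SHHN in both lines, Lamb2 was higher in both, Lama2 was higher in NIH-3T3 and Lamb1 lower in MLg. Each is written 5′ to 3′ on the gene's own strand, in lower case, with GC boxes of either strand in capitals.
Itga11 chr9:62677605-62677904 (+ strand): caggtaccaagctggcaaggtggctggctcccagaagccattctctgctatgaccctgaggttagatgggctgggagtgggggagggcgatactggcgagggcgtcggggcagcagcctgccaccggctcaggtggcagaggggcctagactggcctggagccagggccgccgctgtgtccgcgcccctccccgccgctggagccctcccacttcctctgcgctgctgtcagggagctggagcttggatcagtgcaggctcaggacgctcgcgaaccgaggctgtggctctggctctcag
Lamb2 chr9:108479612-108479911 (+ strand): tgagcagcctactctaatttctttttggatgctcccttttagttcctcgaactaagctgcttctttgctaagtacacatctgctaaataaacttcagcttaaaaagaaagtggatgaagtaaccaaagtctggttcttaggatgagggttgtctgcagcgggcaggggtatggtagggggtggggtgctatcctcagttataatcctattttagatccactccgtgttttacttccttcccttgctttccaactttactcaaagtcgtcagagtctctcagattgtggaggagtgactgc
Lama2 chr10:27616893-27617192 (- strand): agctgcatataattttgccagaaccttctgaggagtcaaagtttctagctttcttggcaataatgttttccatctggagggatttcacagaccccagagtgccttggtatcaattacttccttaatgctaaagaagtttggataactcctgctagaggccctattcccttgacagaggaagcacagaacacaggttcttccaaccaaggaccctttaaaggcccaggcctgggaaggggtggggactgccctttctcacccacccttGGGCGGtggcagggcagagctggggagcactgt
Lamb1 chr12:31265043-31265342 (+ strand): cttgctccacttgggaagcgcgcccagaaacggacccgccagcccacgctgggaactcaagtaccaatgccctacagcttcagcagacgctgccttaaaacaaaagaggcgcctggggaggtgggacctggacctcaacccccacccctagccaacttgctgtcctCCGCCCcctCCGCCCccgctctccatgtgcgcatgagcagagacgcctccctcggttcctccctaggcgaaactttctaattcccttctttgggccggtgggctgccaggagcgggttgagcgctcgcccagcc
The Lamb2 window had the lowest GC content of the 4 at 44.0% and no GC box, Itga11 had 68.0% and no GC box, Lama2 had 50.3% and 1 GC box, and Lamb1 had 63.7% and 2 GC boxes. In GENCODE M21, Lama2 lies at 26980036 to 27619758 on the minus strand, so its RefSeq window falls inside the gene and not at the start annotated there. A match is a description of the letters and not a measured binding site.

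With SHHN, 9 of the 22 tested chains passed the threshold of 0.05 for the adjusted p in NIH-3T3 (limma on log2(FPKM + 0.5), Benjamini-Hochberg over 12379 genes), 5 higher and 4 lower than control. That is 40.9% of the tested chains, where 31.4% of all tested genes passed. In MLg, 9 of 22 also passed, 2 higher and 7 lower, where 22.8% of all tested genes passed. With quantile normalization the calls split into 4 higher and 5 lower in NIH-3T3, with Itga8 called and Lamc1 not, and into 1 higher and 8 lower in MLg, with Itga2b called and Itga6 not. The median log2 fold change of the 22 chains was -0.03 in NIH-3T3 and -0.20 in MLg, against -0.01 and -0.00 over all tested genes, and the median size of the change without its sign was 0.48 and 0.42, against 0.27 and 0.23. Of the 16 integrin chains tested, 1 rose and 3 fell in NIH-3T3, and 1 rose and 6 fell in MLg. Of the 6 laminin chains tested, 4 rose and 1 fell in NIH-3T3, and 1 rose and 1 fell in MLg. The SHHN and control libraries did not overlap for 10 of the 22 chains in NIH-3T3 (45.5%, where 40.4% of all tested genes did not) and for 13 in MLg (59.1%, where 41.4% did not). By direction, 16.6% of all tested genes were higher and 14.8% lower in NIH-3T3, and 12.8% were higher and 10% lower in MLg. These counts describe the chains and were given no test of their own.

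Lamb2 rose in both lines, and Itga11 fell in both, as did Itgb2, which entered the test through control libraries alone. These are 3 of the 22 chains, and 11.6% of all tested genes passed in both lines in the same direction. Itga7 rose in NIH-3T3 and fell in MLg, and 0.921% of all tested genes passed in both lines in opposite directions, whichever line had the rise. The remaining calls stood in a single line: Lama2, Lama5 and Lamc1 rose and Itga2b and Lama4 fell in NIH-3T3, while Itga6 rose and Itga2, Itga8, Itgb5 and Lamb1 fell in MLg. The other 8 chains, Itga1, Itga3, Itga5, Itga9, Itgav, Itgb1, Itgb3 and Itgb8, did not pass in either line.

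**Figure D2:**
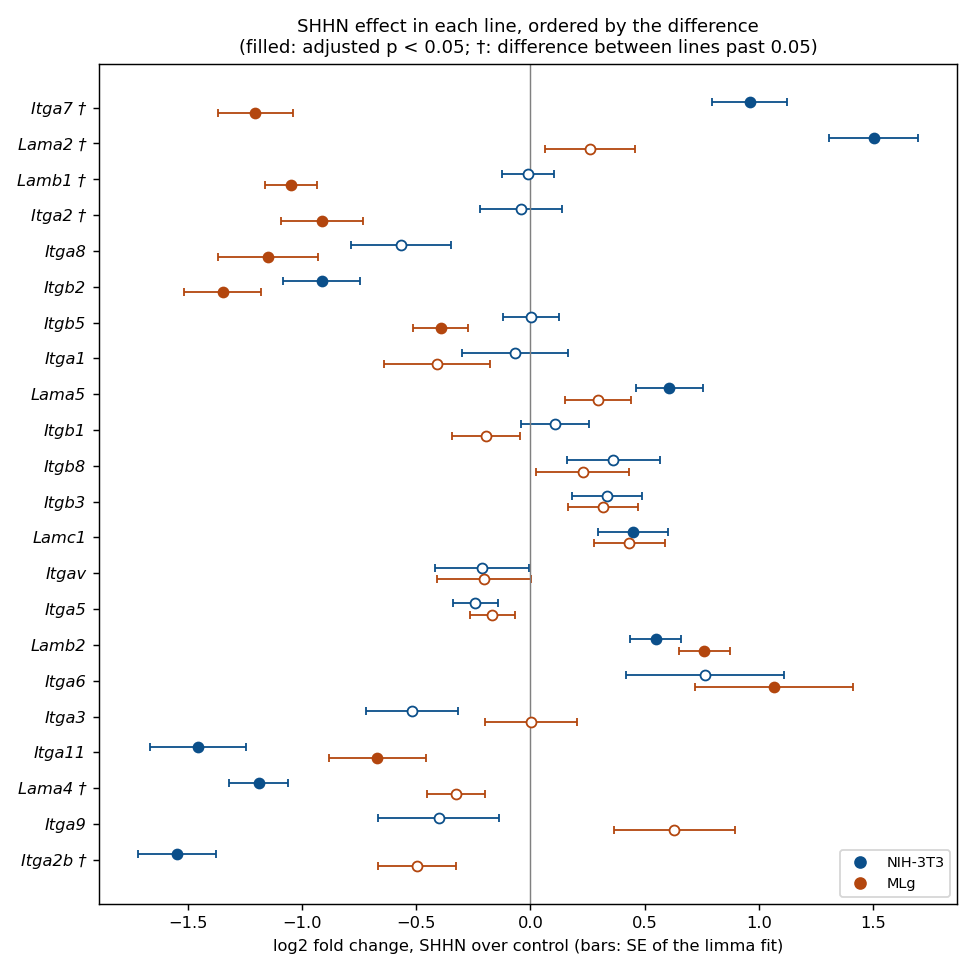
Log2 fold change of SHHN over control for the 22 tested chains in NIH-3T3 and MLg, with standard errors of the limma fit as bars and chains ordered by the difference between the lines; filled points passed an adjusted p of 0.05, and a dagger marks the 6 chains whose difference between lines passed. Itga7 lies at the top of the order with 0.96 in NIH-3T3 and -1.20 in MLg.

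Among the laminin alpha chains, NIH-3T3 cells with SHHN had more Lama2 and less Lama4 mRNA than control cells. Lama2 encodes the alpha chain of the laminin of muscle and peripheral nerve basement membranes. It had 31.9, 30.0 and 20.5 FPKM in NIH-3T3 SHHN libraries, against 10.3, 7.35 and 10.2 FPKM in NIH-3T3 control libraries. The groups did not overlap, and the log2 fold change was 1.5 ± 0.20 (SE, adjusted p = 4.84e-05 by limma). In MLg, Lama2 had 31.9, 29.4 and 28.6 FPKM in SHHN libraries and 25.6, 19.3 and 31.1 FPKM in control libraries. There the groups overlapped, and the log2 fold change of 0.26 ± 0.20 did not pass (SE, adjusted p = 0.398 by limma).

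Lama4 encodes the alpha chain of the laminins of vessels and mesenchyme. In NIH-3T3, its level was 68.0, 77.5 and 62.3 FPKM with SHHN and 164, 143 and 168 FPKM in control libraries. Every SHHN library lay under every control library, and the log2 difference was -1.19 ± 0.13 (SE, adjusted p = 8.25e-06 by limma). The MLg libraries held 53.1, 50.02 and 48.4 FPKM with SHHN and 69.3, 52.9 and 69.3 FPKM in control. The fold change in MLg was -0.32 ± 0.13 and did not pass (SE, adjusted p = 0.0879 by limma), but it passed without the second MLg control library, at -0.45 with an adjusted p of 0.0239 by limma.

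Lama5, an alpha chain whose laminins bind integrins with alpha 3 or alpha 6 chains strongly, was high in MLg and low in NIH-3T3. NIH-3T3 libraries held 0.214, 0.419 and 0.344 FPKM with SHHN and 0.0131, 0.0576 and 0.0451 FPKM in control. Although all of these values lie under the filter of 0.5 FPKM, the groups did not overlap and the log2 fold change was 0.61 ± 0.14 (SE, adjusted p = 0.00561 by limma). The added 0.5 FPKM holds this change down, and with 1 FPKM added in its place the adjusted p was 0.0506 by limma. In MLg, Lama5 had 37.3, 38.6 and 30.7 FPKM in SHHN libraries and 32.9, 27.2 and 26.4 FPKM in control libraries, groups that overlapped (log2 fold change 0.30 ± 0.14, SE, adjusted p = 0.172 by limma).

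As a share of the summed laminin alpha chain FPKM, Lama2 made up 28.1% ± 3.62 in NIH-3T3 SHHN and 5.5% ± 0.549 in NIH-3T3 control libraries (SD, n = 3 each). Lama4 made up 71.5% ± 3.54 and 94.5% ± 0.54 in the same groups, so it was the leading alpha chain in both. The alpha chain sum in NIH-3T3 was 97.1 ± 12.7 FPKM with SHHN and 168 ± 14.8 FPKM in control libraries. In MLg, the sum was 116 ± 7.48 FPKM with SHHN and 118 ± 16.1 FPKM in control libraries. There Lama4 made up 43.5% ± 1.25 with SHHN and 54.0% ± 0.733 in control, Lama5 30.5% ± 2.10 and 24.6% ± 3.40, and Lama2 25.8% ± 0.856 and 21.3% ± 2.80. These shares are descriptions of mRNA per length and were not tested.

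Of the laminin beta chains, Lamb2 rose with SHHN in both lines and Lamb1 fell in MLg. Lamb2, the beta chain of kidney filter and neuromuscular junction laminins, had 85.5, 89.5 and 71.8 FPKM in NIH-3T3 SHHN libraries, against 59.4, 57.6 and 50.8 FPKM in NIH-3T3 control libraries. In MLg it had 206, 203 and 184 FPKM in SHHN libraries, against 119, 119 and 110.4 FPKM in control libraries. No SHHN library of a line reached down to its controls. Its log2 fold change was 0.55 ± 0.11 in NIH-3T3 (SE, adjusted p = 0.00184 by limma) and 0.76 ± 0.11 in MLg (SE, adjusted p = 1.66e-04 by limma).

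Lamb1, the beta chain of the laminins that are widespread in the embryo, had 119, 128 and 106 FPKM in NIH-3T3 SHHN libraries and 135, 108 and 113 FPKM in NIH-3T3 control libraries. These groups overlapped and their difference was -0.01 ± 0.11 on the log2 scale (SE, adjusted p = 0.964 by limma). In MLg, Lamb1 had 40.7, 41.1 and 36.4 FPKM with SHHN, against 78.5, 82.2 and 85.2 FPKM in control libraries. All SHHN values there lay well under the lowest control, at -1.05 ± 0.11 on the log2 scale (SE, adjusted p = 1.23e-05 by limma). Lamb2 made up 83.4% ± 0.198 of the laminin beta chain FPKM in MLg SHHN and 58.6% ± 2.0 in MLg control libraries (SD, n = 3 each). In NIH-3T3 the share of Lamb2 was 41.0% ± 0.794 with SHHN and 32.1% ± 2.41 in control, and Lamb1 stayed the larger share of the pair.

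**Figure D3:**
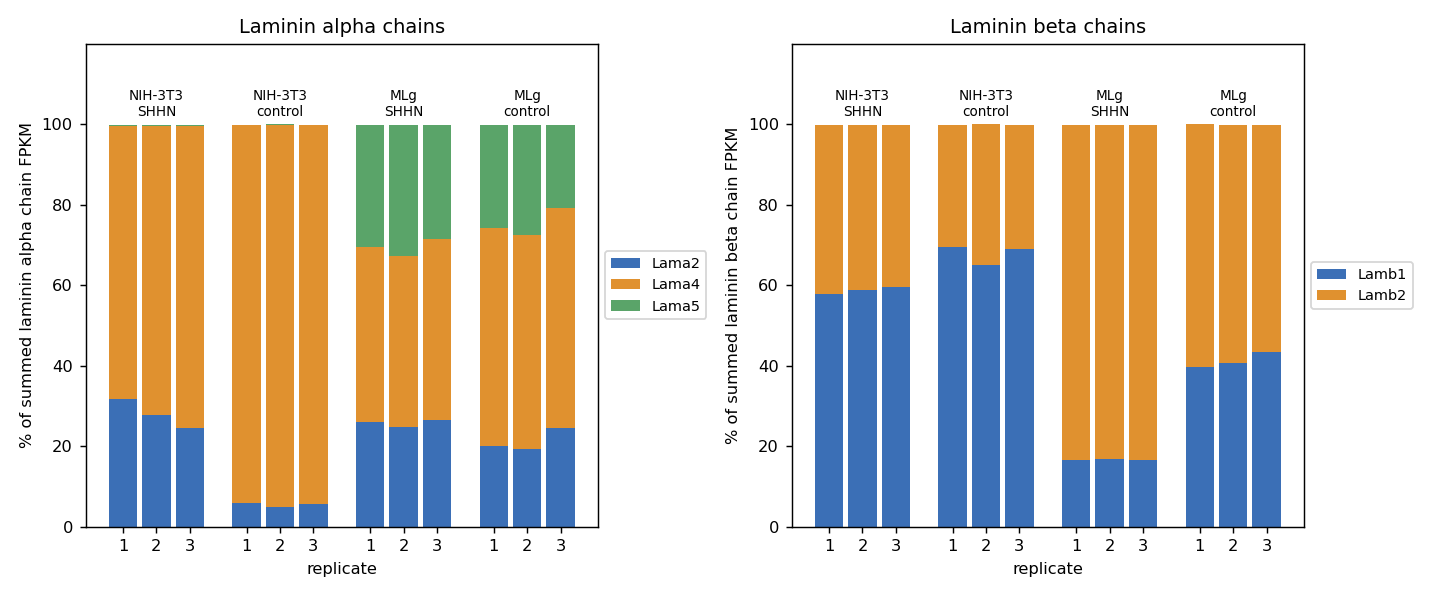
Share of each chain in the summed FPKM of the laminin alpha chains and of the laminin beta chains, with 1 stacked bar per library grouped by line and treatment. Lama2 takes 28.1% of the alpha chain sum in NIH-3T3 SHHN and 5.5% in NIH-3T3 control, and Lamb2 takes 83.4% of the beta chain sum in MLg SHHN and 58.6% in MLg control.

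Lamc1, the gamma chain of most laminins, made up 99.8% of the laminin gamma chain FPKM in NIH-3T3 SHHN, 99.5% in NIH-3T3 control, 99.8% in MLg SHHN and 99.8% in MLg control libraries (means, n = 3 each). Its level was 112, 114 and 81.1 FPKM in NIH-3T3 SHHN libraries and 79.6, 62.2 and 81.3 FPKM in NIH-3T3 control libraries. The third SHHN library lay within the control range. The log2 fold change of 0.45 ± 0.16 passed (SE, adjusted p = 0.0412 by limma), but not with quantile normalization (adjusted p = 0.0574), with 6 libraries in the fit (0.121), without the first or second SHHN library (0.138 and 0.155) or without the second control library (0.127), again by limma. It was also lost without any single MLg SHHN library, at 0.0527 to 0.0569. In MLg, Lamc1 had 124, 119 and 111 FPKM with SHHN and 98.5, 74.0 and 90.8 FPKM in control libraries. Those groups did not overlap, and 0.43 ± 0.16 on the log2 scale did not pass (SE, adjusted p = 0.0611 by limma), whereas it passed with the 6 MLg libraries alone (adjusted p = 0.0332 by limma).

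Of the collagen-binding integrin alpha chains Itga1, Itga2, Itga10 and Itga11, 3 were tested, of which 1 fell in NIH-3T3 and 2 fell in MLg. Over all tested genes, 14.8% were lower in NIH-3T3 and 10% in MLg, and so few chains do not describe a class. Itga11, whose product pairs with integrin beta 1 as a receptor for fibrillar collagen on fibroblasts, is at 62677826 to 62783982 on the plus strand of chromosome 9 (GRCm38). It had 2.03, 1.40 and 0.908 FPKM in NIH-3T3 SHHN libraries, against 4.52, 5.59 and 4.07 FPKM in NIH-3T3 control libraries. In MLg, the levels were 11.5, 12.6 and 10.6 FPKM with SHHN, against 14.3, 21.3 and 21.4 FPKM in control libraries. The groups overlapped in neither line. Its log2 fold change was -1.46 ± 0.21 in NIH-3T3 (SE, adjusted p = 1.33e-04 by limma) and -0.67 ± 0.21 in MLg (SE, adjusted p = 0.0354 by limma). The MLg call was lost without the second MLg control library (adjusted p = 0.135 by limma) without the third (0.112) and without any single MLg SHHN library (0.058 to 0.126).

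Itga2, whose product pairs with integrin beta 1 as a collagen receptor of platelets and epithelium, was listed at no more than 0.0619 FPKM in any NIH-3T3 library. MLg libraries held 1.04, 1.60 and 1.31 FPKM with SHHN, against 2.33, 2.62 and 3.94 FPKM in control. The MLg groups did not overlap, and the log2 fold change was -0.91 ± 0.18 (SE, adjusted p = 0.00188 by limma). Its neighbour Itga1, which encodes a receptor chain for collagen IV and other collagens, had 2.55, 2.70 and 2.44 FPKM in MLg SHHN and 2.48, 3.16 and 5.65 FPKM in MLg control libraries. One control library was high and the groups overlapped, so -0.41 ± 0.23 on the log2 scale did not pass (SE, adjusted p = 0.251 by limma).

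Among the laminin-binding integrin alpha chains Itga3, Itga6 and Itga7, all 3 were tested. Itga7, the chain of the main laminin receptor of skeletal muscle, had 2.11, 1.41 and 1.14 FPKM in NIH-3T3 SHHN libraries, against 0.565, 0.544 and 0.496 FPKM in NIH-3T3 control libraries. In MLg, it had 6.97, 7.52 and 7.06 FPKM with SHHN, against 15, 19.5 and 17.3 FPKM in control. The SHHN libraries lay above every control in NIH-3T3 and under every control in MLg. The log2 fold change was 0.96 ± 0.17 in NIH-3T3 (SE, adjusted p = 5.47e-04 by limma) and -1.20 ± 0.17 in MLg (SE, adjusted p = 9.94e-05 by limma). The summed FPKM of 5 muscle markers was 0.0155 to 0.0483 in NIH-3T3 SHHN, 0.0416 to 0.121 in NIH-3T3 control, 0.294 to 0.379 in MLg SHHN and 0.34 to 3.14 in MLg control libraries. The highest of these sums was that of the first MLg control library, which had 1.86 FPKM of Myog, a gene listed at 0 in the other MLg control libraries. None of the 5 was tested, and their part in the result was not tested.

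Itga6, the chain of the laminin receptors alpha 6 beta 1 and alpha 6 beta 4, had 6.43, 6.41 and 7.0 FPKM in MLg SHHN libraries, against 2.52, 2.60 and 3.70 FPKM in MLg control libraries. The groups did not overlap, and the log2 fold change was 1.06 ± 0.35 (SE, adjusted p = 0.0404 by limma). That call was lost without any single MLg SHHN library (adjusted p = 0.0854 to 0.115 by limma) and without the first or second MLg control library (0.121 and 0.12). In NIH-3T3, Itga6 had 23.7, 7.21 and 6.91 FPKM with SHHN and 6.09, 4.91 and 7.36 FPKM in control. The first SHHN library stood far above all others. The log2 fold change of 0.77 ± 0.35 in NIH-3T3 did not pass (SE, adjusted p = 0.111 by limma) and was 0.21 without that library (adjusted p = 0.459 by limma), while without the third SHHN library it was 1.06 and passed (adjusted p = 0.0434 by limma). Itga3, which pairs with integrin beta 1 as a laminin receptor, had 6.20, 3.65 and 2.95 FPKM in NIH-3T3 SHHN and 5.93, 6.28 and 5.96 FPKM in NIH-3T3 control libraries, and -0.52 ± 0.20 on the log2 scale did not pass (SE, adjusted p = 0.0669 by limma). In MLg its difference was 0.00 ± 0.20 on the same scale.

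Endothelial cells also express Itga6, Lama4 and Lama5, so endothelial markers were read beside these chains. The summed FPKM of 8 such markers was 6.73 to 25.4 in NIH-3T3 SHHN, 5.75 to 7.94 in NIH-3T3 control, 6.29 to 7.01 in MLg SHHN and 0.233 to 0.447 in MLg control libraries. Cdh5 and Tek were the 2 of the 8 that were tested. Cdh5 passed the filter through SHHN libraries alone, where it is high, so its calls are no support. Cdh5 averaged 9.06 ± 6.19 FPKM in SHHN and 0.0774 ± 0.0264 FPKM in control libraries of NIH-3T3, and 5.03 ± 0.387 FPKM in SHHN and 0.0123 ± 0.0213 FPKM in control libraries of MLg (SD, n = 3 each), and it rose in both lines (adjusted p = 2.2e-05 and 6.0e-05 by limma). Tek rose in MLg by 1.38 ± 0.26 on the log2 scale (SE, adjusted p = 0.00139 by limma), and its difference of 0.25 ± 0.26 in NIH-3T3 did not pass. Vwf, which was not tested, had 0.480, 0.510 and 0.544 FPKM in MLg SHHN libraries, against 0.345, 0.0923 and 0.0788 FPKM in MLg control libraries, groups that did not overlap. Pecam1 and Kdr, also among the 8, had at most 0.137 and 0.0128 FPKM in any library, and Emcn was listed at 0 in all 12. The part of these markers in the result was not tested.

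All 4 of the Arg-Gly-Asp-binding integrin alpha chains, Itga5, Itga8, Itgav and Itga2b, were tested, and 1 fell in each line. The share of all tested genes that were lower was 14.8% in NIH-3T3 and 10% in MLg. Itga2b, the chain of the platelet fibrinogen receptor, had 1.54, 1.79 and 1.70 FPKM in NIH-3T3 SHHN libraries, against 6.52, 7.18 and 4.28 FPKM in NIH-3T3 control libraries. Every SHHN library lay under every control, at -1.55 ± 0.17 on the log2 scale (SE, adjusted p = 1.1e-05 by limma). In MLg it had 2.03, 2.03 and 1.76 FPKM with SHHN and 3.05, 3.24 and 2.56 FPKM in control. Those groups also did not overlap, while -0.50 ± 0.17 on the log2 scale missed the threshold (SE, adjusted p = 0.0522 by limma) and passed under 5 alternatives, among them without the third MLg control library (0.0479) or the second or the third NIH-3T3 control library (0.0301 and 0.0166).

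Itga8, whose product pairs with integrin beta 1 as the nephronectin receptor of mesenchyme, had 6.55, 5.71 and 7.05 FPKM in MLg SHHN libraries, against 16, 12.2 and 16.6 FPKM in MLg control libraries. The lowest control was well above the highest SHHN library, and the log2 fold change was -1.15 ± 0.22 (SE, adjusted p = 0.00152 by limma). In NIH-3T3, Itga8 had 2.80, 2.83 and 2.19 FPKM with SHHN and 5.48, 2.55 and 4.74 FPKM in control. The second control library lay among the SHHN libraries. The log2 fold change of -0.57 ± 0.22 did not pass (SE, adjusted p = 0.0654 by limma), and it passed without that control (adjusted p = 0.00142) and with quantile normalization (adjusted p = 0.0186), both by limma.

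Itga5, the fibronectin receptor chain, averaged 29.8 ± 1.91 FPKM in SHHN and 35.4 ± 1.93 FPKM in control libraries of NIH-3T3, and 38.2 ± 2.02 FPKM in SHHN and 43.0 ± 2.53 FPKM in control libraries of MLg (SD, n = 3 each). Neither difference passed, at -0.24 ± 0.10 on the log2 scale in NIH-3T3 (SE, adjusted p = 0.0793 by limma) and -0.17 ± 0.10 in MLg (SE, adjusted p = 0.268 by limma). Itgav, the chain of the vitronectin receptors and of integrins that release latent TGF-beta, averaged 24.2 ± 1.77 FPKM in SHHN and 29.3 ± 9.53 FPKM in control libraries of NIH-3T3, and 38.0 ± 3.01 FPKM in SHHN and 44.2 ± 8.01 FPKM in control libraries of MLg (SD, n = 3 each). Its differences of -0.21 ± 0.21 and -0.20 ± 0.21 on the log2 scale did not pass in NIH-3T3 or in MLg. Itga9, the receptor chain for tenascin C and other ligands, had 1.35, 4.10 and 3.40 FPKM in NIH-3T3 SHHN and 4.03, 3.76 and 3.48 FPKM in NIH-3T3 control libraries, and -0.40 ± 0.26 on the log2 scale did not pass (SE, adjusted p = 0.279 by limma). In MLg it had 0.893, 0.579 and 0.703 FPKM with SHHN and 0.227, 0.245 and 0.40 FPKM in control, groups that did not overlap, and 0.63 ± 0.26 on the log2 scale did not pass (SE, adjusted p = 0.11 by limma).

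Of the integrin beta chains, Itgb1 had no difference that passed, at 0.11 ± 0.15 on the log2 scale in NIH-3T3 (SE, adjusted p = 0.632 by limma) and -0.19 ± 0.15 in MLg (SE, adjusted p = 0.414 by limma). It made up 71.9% ± 2.61 of the integrin beta chain FPKM in NIH-3T3 SHHN, 70.7% ± 4.85 in NIH-3T3 control, 71.0% ± 3.38 in MLg SHHN and 68.4% ± 4.90 in MLg control libraries (SD, n = 3 each). Itgb5, a partner of integrin alpha v in vitronectin binding, had 58.0, 64.6 and 53.2 FPKM in MLg SHHN libraries, against 79.4, 84.1 and 68.1 FPKM in MLg control libraries. Its groups did not overlap, and the log2 fold change of -0.39 ± 0.12 passed (SE, adjusted p = 0.0315 by limma) but was lost without the first or the third MLg SHHN library (0.0849 and 0.14) or the first or second MLg control library (0.091 and 0.131). In NIH-3T3 it had 74.5, 78.6 and 70.9 FPKM with SHHN and 70.4, 85.4 and 68.5 FPKM in control, with a log2 difference of 0.00 ± 0.12. Itgb3, another partner of integrin alpha v, averaged 8.54 ± 1.14 FPKM in SHHN and 6.68 ± 1.01 FPKM in control libraries of NIH-3T3, and 4.44 ± 0.407 FPKM in SHHN and 3.48 ± 0.537 FPKM in control libraries of MLg (SD, n = 3 each), and neither difference passed. Itgb8, a further partner of integrin alpha v that takes part in releasing TGF-beta, averaged 0.911 ± 0.403 FPKM in SHHN and 0.581 ± 0.215 FPKM in control libraries of NIH-3T3, and 0.282 ± 0.0352 FPKM in SHHN and 0.168 ± 0.0581 FPKM in control libraries of MLg (SD, n = 3 each), again with no difference that passed.

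Itgb2, the beta chain of the leukocyte integrins, had 0.0206, 0.0903 and 0.0787 FPKM in NIH-3T3 SHHN libraries, against 0.844, 0.426 and 0.455 FPKM in NIH-3T3 control libraries. In MLg it had 0.144, 0.136 and 0.051 FPKM with SHHN, against 0.92, 1.17 and 1.06 FPKM in control. The level was low throughout, and the groups overlapped in neither line. Its log2 fold change was -0.91 ± 0.17 in NIH-3T3 (SE, adjusted p = 8.98e-04 by limma) and -1.35 ± 0.17 in MLg (SE, adjusted p = 4.16e-05 by limma). Itgb2 passed the filter through control libraries alone, where it is high, so its calls are no support for the counts above, and with a filter of 1 FPKM it was not tested.

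Of the alpha partners of Itgb2, Itgal had 0.0237, 0.124 and 0.147 FPKM in NIH-3T3 SHHN and 0.36, 0.422 and 0.258 FPKM in NIH-3T3 control libraries and was not tested, and Itgad, Itgam and Itgax had at most 0.0299 FPKM. The summed FPKM of 8 leukocyte markers was 0.622 to 1.69 in NIH-3T3 SHHN, 1.03 to 1.89 in NIH-3T3 control, 0.699 to 1.38 in MLg SHHN and 1.01 to 1.70 in MLg control libraries. The macrophage markers Cd68 and Lyz2 were tested. Cd68 had 0.354 to 1.71 FPKM and passed in neither line, and Lyz2 was higher with SHHN in NIH-3T3, by 0.75 ± 0.24 on the log2 scale (SE, adjusted p = 0.0289 by limma), and did not pass in MLg. The NIH-3T3 groups of Lyz2 overlapped, and it reached 0.5 FPKM in only 3 libraries. Csf1r, which was not tested, went the other way in NIH-3T3, with means of 0.0204 FPKM in SHHN and 0.151 FPKM in control libraries that did not overlap. In MLg the groups of Csf1r overlapped. Ptprc, the common leukocyte antigen, had at most 0.101 FPKM in any library, and Adgre1 and Cd3e were listed at 0. The part of leukocyte markers in the fall of Itgb2 was not tested.

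**Figure D4:**
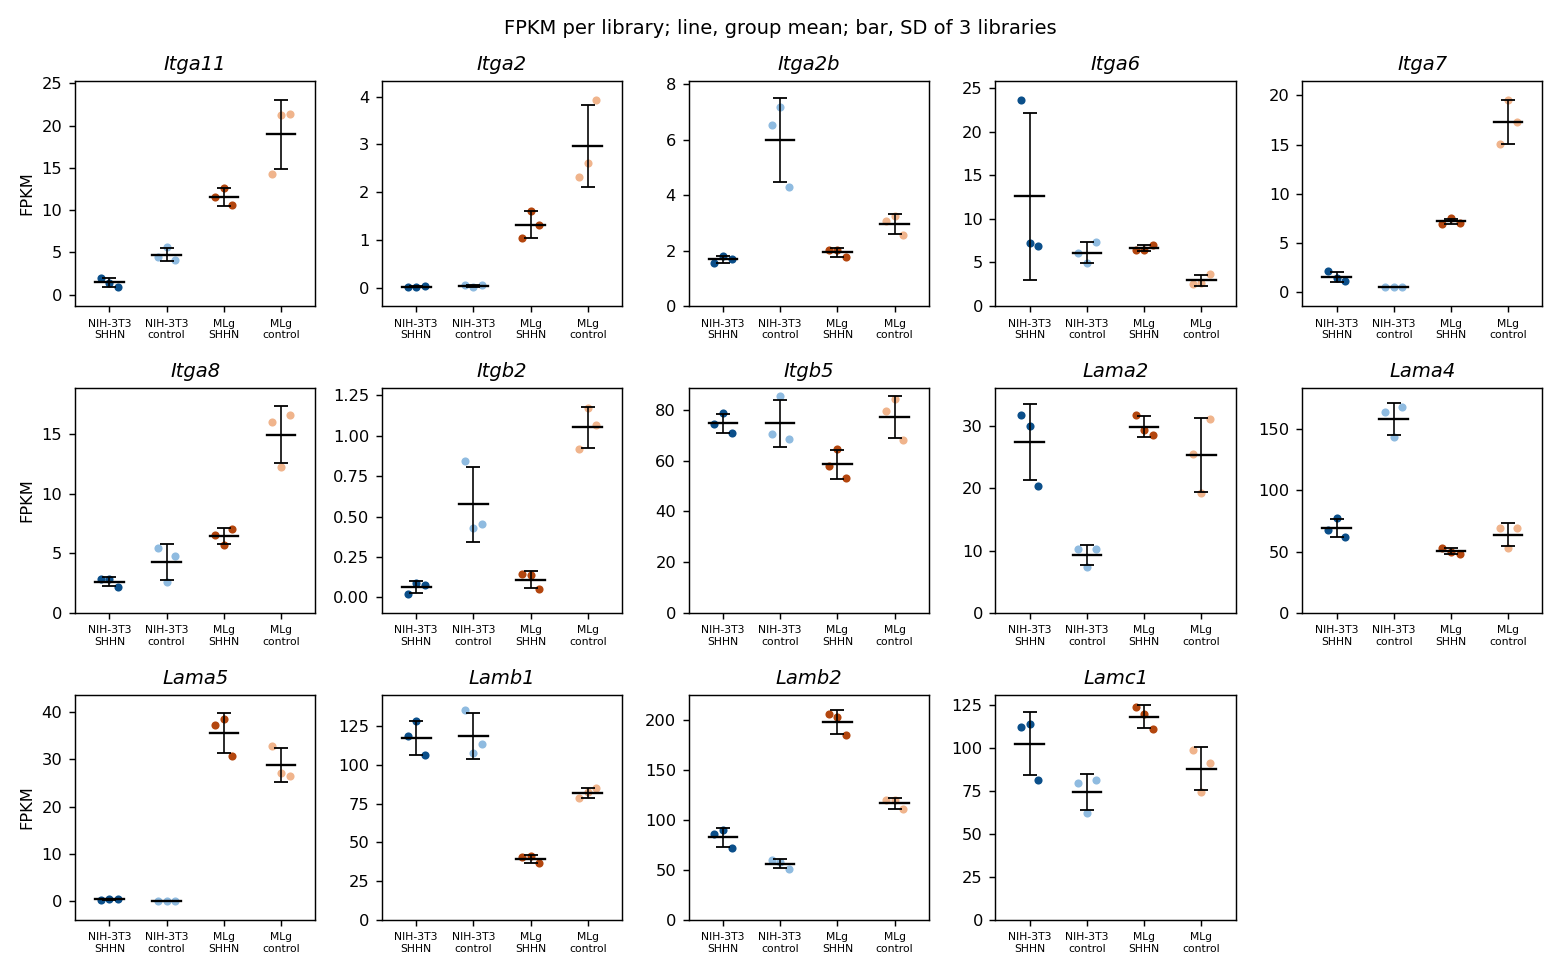
FPKM per library of the named chains in NIH-3T3 SHHN, NIH-3T3 control, MLg SHHN and MLg control, with 1 point per library, a line at the group mean and a bar of 1 SD over 3 libraries; each panel has its own linear axis. Itga7 lies higher with SHHN in NIH-3T3 (1.55 against 0.535 FPKM) and lower with SHHN in MLg (7.18 against 17.3 FPKM).

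The SHHN effect itself differed between NIH-3T3 and MLg for 6 of the 22 chains (NIH-3T3 minus MLg, adjusted p under 0.05), or 27.3%, where 13.4% of all tested genes passed. The difference was above 0 for 4 chains (7.48% of all tested genes) and under 0 for 2 (5.95% of all tested genes). Itga7 differed by 2.16 ± 0.23 on the log2 scale (SE, adjusted p = 5.74e-05 by limma), with an effect above 0 in NIH-3T3 and under 0 in MLg. Lama2 differed by 1.24 ± 0.28 (SE, adjusted p = 0.00947 by limma), with the larger effect in NIH-3T3. Lamb1 differed by 1.04 ± 0.16 (SE, adjusted p = 8.77e-04 by limma) and Itga2 by 0.87 ± 0.25 (SE, adjusted p = 0.0366 by limma), and for both the fall stood in MLg. For Itga2b and Lama4 the effect lay further under 0 in NIH-3T3, with differences of -1.05 ± 0.24 (SE, adjusted p = 0.0115 by limma) and -0.87 ± 0.18 (SE, adjusted p = 0.0064 by limma). The call of Itga2, which is near 0 FPKM in NIH-3T3, was lost with 0.1 FPKM added in place of 0.5 (adjusted p = 0.137 by limma). It was also lost without any of 9 single libraries (0.0521 to 0.0936), all but the second NIH-3T3 control, the second MLg SHHN and the first MLg control library.

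The other 16 differences did not pass, among them those of Lamb2 (-0.21 ± 0.16), Itgb2 (0.43 ± 0.24) and Itga11 (-0.79 ± 0.30, all SE on the log2 scale), whose fall was larger in NIH-3T3 but not beyond the threshold (adjusted p = 0.104 by limma). The difference of Lama5 was 0.31 ± 0.21 and did not pass, but with 0.1 FPKM added in place of 0.5 it was 1.3 and passed (adjusted p = 0.0125 by limma). Without the first NIH-3T3 SHHN library, the difference of Itga11 was -1.0 and passed (adjusted p = 0.0341 by limma), as did that of Itga6 (-0.86, adjusted p = 0.0409 by limma).

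Between the untreated lines, 19 of the 22 chains passed (NIH-3T3 control against MLg control), 7 higher and 12 lower in NIH-3T3, or 86.4%, where 50.1% of all tested genes passed (24.4% higher and 25.7% lower). Control libraries of the lines did not overlap for 19 chains, where 52.3% of all tested genes did not. Lama5 and Itga2 passed the filter through MLg libraries alone and Itgb8 through NIH-3T3 libraries alone, where each is high. Their calls are therefore no support for these counts. This comparison uses the same control libraries as the SHHN comparisons. Line, strain, age and tissue of origin differ together here and cannot be told apart. Of these calls, Itga6 was lost without the first or the third NIH-3T3 control or the first or second MLg control library (adjusted p = 0.0712 to 0.113 by limma), and Itgb2 without the second or the third NIH-3T3 control or the second MLg control library (0.053 to 0.0586). Higher in NIH-3T3 were Itga2b, Itga6, Itga9, Itgb3, Itgb8, Lama4 and Lamb1, and lower were Itga1, Itga2, Itga3, Itga5, Itga7, Itga8, Itga11, Itgav, Itgb2, Lama2, Lama5 and Lamb2. Itgb1 and Lamc1, which take part in many heterodimers or trimers, and Itgb5 did not pass, with log2 differences of 0.17 ± 0.15 for Itgb1, -0.24 ± 0.16 for Lamc1 and -0.05 ± 0.12 for Itgb5 (SE).

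Of these 19 chains, 5 differed at least 4-fold with at least 1 FPKM in one of the lines, where 6.28% of all tested genes passed with such a fold, whatever their level. Lama5 averaged 0.0386 ± 0.0229 FPKM in NIH-3T3 control and 28.8 ± 3.55 FPKM in MLg control libraries (SD, n = 3 each), a log2 difference of -5.76 ± 0.14 (SE, adjusted p = 1.51e-12 by limma). Itga7 averaged 0.535 ± 0.0353 FPKM in NIH-3T3 control and 17.3 ± 2.27 FPKM in MLg control libraries (SD, n = 3 each), a log2 difference of -4.09 ± 0.17 (SE, adjusted p = 1.61e-10 by limma). The collagen receptor chains Itga2 and Itga1 were lower in NIH-3T3 by log2 differences of -2.64 ± 0.18 and -2.30 ± 0.23 (SE). Lama5 and Itga2 entered the test through MLg libraries alone, where they are high. Itga9 was higher in NIH-3T3, with 4.03, 3.76 and 3.48 FPKM, against 0.227, 0.245 and 0.40 FPKM in MLg control libraries, a log2 difference of 2.43 ± 0.26 (SE, adjusted p = 4.18e-06 by limma).

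Other genes of cell adhesion were counted from lists of the pathway. Of 20 tested basement membrane partners of laminin and laminin receptors outside the integrins (of 23 listed), 10 rose and 2 fell with SHHN in NIH-3T3, where 16.6% of all tested genes were higher and 14.8% lower, and 7 rose and 6 fell in MLg, where 12.8% of all tested genes were higher and 10% lower, with a median log2 fold change of 0.47 in NIH-3T3 and 0.17 in MLg. Among the receptors, the syndecan gene Sdc4 fell in both lines, by 0.60 on the log2 scale in NIH-3T3 and by 0.47 in MLg. Others rose in a single line, Dag1 by 0.51 in NIH-3T3 and Sdc1 by 0.47 in MLg. Their differences of 0.04 for Dag1 in MLg and -0.27 for Sdc1 in NIH-3T3 did not pass. Col15a1, a collagen at the basement membrane border, rose by 1.80 on that scale in NIH-3T3 and differed by 0.30 in MLg, which did not pass. In NIH-3T3 the fibulin gene Fbln2 rose by 1.39, and in MLg by 0.63. The collagen IV genes Col4a1 and Col4a2 also rose in both lines, Col4a1 by 0.78 in NIH-3T3 and 2.14 in MLg. For Col4a2 the rise was 0.63 in NIH-3T3 and 1.77 in MLg. Col4a5 and Col4a6 fell in MLg, with log2 fold changes of -0.47 and -0.51, and did not pass in NIH-3T3 (-0.12 and -0.18). Col4a3 and Col4a4 were not tested. Col4a1 averaged 327 ± 28.8 FPKM in MLg SHHN and 74.2 ± 13.5 FPKM in MLg control libraries (SD, n = 3 each). Nid2, a nidogen that links laminin to collagen IV, fell in both lines. In NIH-3T3 it averaged 30.8 ± 11.4 FPKM in SHHN and 118 ± 31.4 FPKM in control libraries. In MLg it averaged 111 ± 11.5 FPKM in SHHN and 329.9 ± 53.3 FPKM in control libraries (SD, n = 3 each). The other nidogen gene, Nid1, passed in neither line, with log2 differences of 0.11 in NIH-3T3 and -0.07 in MLg.

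Of 23 tested integrin ligands outside the laminins (of 24 listed), 3 rose and 10 fell in NIH-3T3, and 2 rose and 6 fell in MLg, or 56.5% and 34.8%, where 31.4% and 22.8% of all tested genes passed, with a median log2 fold change of -0.39 in NIH-3T3 and -0.14 in MLg. Ibsp, among the 3 that rose in NIH-3T3, passed the filter through NIH-3T3 SHHN libraries alone, where it is high. Its call is therefore no support for these counts. Vcam1, a ligand of integrin alpha 4 beta 1, fell in both lines, by 2.60 on the log2 scale in NIH-3T3 and by 0.78 in MLg. Npnt, which encodes nephronectin, the ligand of integrin alpha 8 beta 1, fell in both lines, by 1.26 in NIH-3T3 and by 1.57 in MLg. Ctgf, a matricellular ligand of several integrins, rose in both lines by 4.81 and 3.66 on that scale.

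Of 37 tested adaptors and regulators of integrin adhesion (of 40 listed), 7 rose and 7 fell in NIH-3T3, and 2 rose and 6 fell in MLg, or 37.8% and 21.6%, near the 31.4% and 22.8% of all tested genes that passed, with a median log2 fold change of -0.00 in NIH-3T3 and -0.14 in MLg. The tensin genes Tns1 and Tns3, whose products tie integrins to actin, rose in NIH-3T3 by 1.49 and 1.09 on the log2 scale and had differences of 0.37 and 0.31 in MLg that did not pass. Fermt2, which encodes the integrin activator kindlin 2, rose in MLg by 0.58 and had a difference of 0.01 in NIH-3T3 that did not pass. Zyx, which encodes the focal adhesion protein zyxin, fell in both lines and averaged 103 ± 10.9 FPKM in SHHN and 197 ± 21.8 FPKM in control libraries of NIH-3T3, and 106 ± 13.9 FPKM in SHHN and 253 ± 35.6 FPKM in control libraries of MLg (SD, n = 3 each).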

How the data were processed

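The files held FPKM per gene and library, computed by the authors. The submitters' processing notes name bcl2fastq, TopHat2 2.0.12, Cufflinks 2.2.1 and the build mm10, per the labels. The annotation and any scaling between libraries are not given in the sources used here. No counts were used, so the depth is unknown and no counting interval is given. The 24346 genes exclude 1 entry without values. The 12379 genes that reached 0.5 FPKM in 3 or more of the 12 libraries were tested with limma 3.58.1 in R 4.3.3 on log2(FPKM + 0.5), with 4 group means, a variance trend and two-sided p-values adjusted by Benjamini-Hochberg in each contrast. The added 0.5 FPKM makes fold changes of low genes too small. Errors of FPKM are SD over 3 libraries. The fit was tested on simulated data.

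The chains and lists were chosen with earlier results of these data known. Per-library values were to be given for Itga11 and each chain that passed in an SHHN contrast or in the difference with a mean of at least 1 FPKM in a group, and from each list up to 3 genes a direction with the smallest p could be named. Other chains and list genes were chosen after their values were seen. The counts of called chains were recomputed under alternatives. So were the chains chosen by rule and the list genes chosen by rule, each list gene in the contrast that named it. The alternatives added 0.1 or 1 FPKM, filtered genes at 1 FPKM or not at all, or used quantile or median-ratio scaling. Others used fits of 6 libraries (not for the difference between lines), robust variances, the replicate block, or left out each library in turn. Shares, counts of the lists and SHHN results of the other chains were not recomputed. MLg libraries of the same number deviated together (correlations across genes of 0.132, 0.157 and 0.241), so the pairing is read beside MLg. The pairing comes from this check and not from the labels. Results of some genes are not reported here.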

Additional observations from a re-analysis of the deposited data

Results flagged for a closer look

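For 6 chains the SHHN effect differed between NIH-3T3 and MLg by the test of the difference itself (limma, NIH-3T3 minus MLg, log2 scale). The difference was 2.16 for Itga7 (adjusted p = 5.74e-05), 1.24 for Lama2 (adjusted p = 0.00947), 1.04 for Lamb1 (adjusted p = 8.77e-04), 0.87 for Itga2 (adjusted p = 0.0366), -1.05 for Itga2b (adjusted p = 0.0115) and -0.87 for Lama4 (adjusted p = 0.0064). Itga7 is the chain of the 6 with opposite directions, higher with SHHN in NIH-3T3 and lower with SHHN in MLg in 3 of 3 libraries each. Of the 6 differences, 5 held under every alternative run, and that of Itga2 was lost in 10 of them.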

How the results depend on the processing

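No direction of a called chain turned round, and no count of called chains moved beyond 1.5 times. Over all alternatives, 8 to 12 chains passed in NIH-3T3 (9 as reported), 6 to 12 in MLg (9), 5 to 9 for the difference between lines (6) and 16 to 22 between the untreated lines (19). Leaving out single libraries gave 8 to 10, 6 to 11, 5 to 8 and 16 to 19. Calls that held under every alternative that tested the chain were Itga11, Itga2b, Itga7, Itgb2, Lama2, Lama4 and Lamb2 in NIH-3T3 and Itga2, Itga7, Itga8, Itgb2, Lamb1 and Lamb2 in MLg. Itgb2 was not tested with a filter of 1 FPKM, under which 8 chains passed in each line. In MLg, Itga6 reached an adjusted p of 0.0507 with quantile normalization, 0.0501 with median-ratio scaling and 0.0867 with no filter, and Itga11 0.0683 with no filter (limma). Quantile normalization gave 1958 higher and 2136 lower genes in NIH-3T3 (2059 and 1826 as reported) and 1476 and 1588 in MLg (1580 and 1238), and median-ratio scaling 1470 and 1434 in MLg. The cause was not tested. With the replicate block, 8 chains passed in NIH-3T3, 9 in MLg, 6 for the difference and 19 between the untreated lines, and the loss was Lamc1 in NIH-3T3 (adjusted p = 0.06 by limma). NIH-3T3 libraries of the same number did not deviate together (-0.000703, -0.101 and 0.0269), so they share a number alone. Depth is unknown, so low chains such as Itgb2 and Lama5 in NIH-3T3 carry an unmeasured counting error.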
